A study of Mus musculus with 6 samples.

Results

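POU domain neural factors were followed in 2 cell populations of the mouse head, sorted by GFP at embryonic day 9.5. The group holds 6 genes, chosen by name: Pou3f1, Pou3f2, Pou3f3, Pou3f4, Pou4f1 and Pou2f1. The platform's probe-to-gene table names 6 probes for 4 of them, out of 45281 probes and 19057 genes with a named probe. Pou3f1, Pou3f3 and Pou3f4 have 1 probe each and Pou4f1 has 3, while Pou3f2 and Pou2f1 have none under their symbols and were not analysed here.

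Cranial neural crest was taken as GFP-positive cells of Wnt1-Cre x Z/EG embryos (3 arrays), and cranial mesoderm as GFP-positive cells of Mesp1-Cre x Z/EG embryos (3 arrays). Z/EG is a reporter that turns on GFP once Cre has cut it, so the sort holds descendants of any cell in which the Wnt1 or Mesp1 driver made Cre. Wnt1-Cre acts in the dorsal neural tube and midbrain as well as in crest, and Mesp1-Cre acts in early mesoderm, whose descendants include vessels and blood. All embryos were of C57Bl/6 x 129 x ARC/s background, none was treated, and the 3 replicates of each population were isolated separately. RNA of each sort was amplified, labelled with biotin and hybridized to Illumina whole-genome bead arrays, all 6 on 1 BeadChip. The groups held separate positions on it, so position and cell type cannot be told apart. Litters, days and numbers of embryos are not given in the labels, so p-values measure the spread between these samples.

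POU proteins bind DNA through a POU-specific domain and a homeodomain joined by a flexible linker, classically at the octamer ATGCAAAT. The class III genes Pou3f1 to Pou3f4 are expressed in overlapping parts of the neural tube, where their proteins act together with SOX proteins on neural enhancers. Pou3f1, also called SCIP, is known from neural progenitors and from Schwann cells before they myelinate, a lineage that comes from crest. Pou4f1, also called Brn3a, marks sensory neurons of the cranial and spinal ganglia and some midbrain neurons, and Pou2f1 encodes the widely expressed Oct1.

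The stretches upstream of 3 members are shown because their probes lay near the detection limit and differed in passing it: Pou3f4 and Pou4f1 stood above background on the same 2 crest arrays, and Pou3f3 on none. RefSeq's table of starts used here held 5 of the 6 members, and Pou3f1 is named only. Each run gives the 250 bases before the annotated start, 5′ to 3′ on the gene's strand, on GRCm38.p6. Pou3f4 lies on the plus strand at chrX:110814129-110814378, Pou4f1 on the minus strand at chr14:104468000-104468249 and Pou3f3 on the plus strand at chr1:42695518-42695767. Capitals mark matches, on either strand, to CCAAT or GGGCGG.
Pou3f4: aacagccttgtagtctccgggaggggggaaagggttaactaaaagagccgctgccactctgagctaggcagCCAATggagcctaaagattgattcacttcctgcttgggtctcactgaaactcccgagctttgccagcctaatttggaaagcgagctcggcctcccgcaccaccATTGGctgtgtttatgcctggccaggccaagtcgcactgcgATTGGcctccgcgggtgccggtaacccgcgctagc
Pou4f1: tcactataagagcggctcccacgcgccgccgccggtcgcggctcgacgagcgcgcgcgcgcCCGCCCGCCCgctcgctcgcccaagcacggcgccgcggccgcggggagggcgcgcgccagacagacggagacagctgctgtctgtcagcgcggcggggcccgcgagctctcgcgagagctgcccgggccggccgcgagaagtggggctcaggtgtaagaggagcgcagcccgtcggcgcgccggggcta
Pou3f3: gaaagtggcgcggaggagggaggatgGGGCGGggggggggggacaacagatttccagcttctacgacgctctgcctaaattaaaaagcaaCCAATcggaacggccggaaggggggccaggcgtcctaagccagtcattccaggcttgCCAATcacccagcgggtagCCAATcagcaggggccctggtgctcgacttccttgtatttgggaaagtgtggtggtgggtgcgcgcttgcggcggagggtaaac

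The 4 short motifs searched, on both strands, were the octamer ATGCAAAT, the CCAAT box, the TATA box (TATAAA) and the GC box (GGGCGG). The octamer and the TATA box had 0 matches in any of the 3 stretches, against 1.6% and 12.4% of 32851 upstream stretches of the same length that hold them. Pou3f4 and Pou3f3 each had 3 CCAAT matches, a number reached or passed by 2.79% of stretches, and 33.8% hold at least 1. Pou4f1 had no CCAAT but 2 overlapping matches to GGGCGG, which 32.7% of stretches hold, and Pou3f3 had 1. The Pou4f1 stretch was 78% G or C, the Pou3f4 stretch 58% and the Pou3f3 stretch 60.8%. The octamer's absence from these windows says nothing of where POU proteins bind elsewhere.

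Among all 9214 genes that could be tested, crest was higher in 766 (8.31%) and mesoderm in 935 (10.1%) at an adjusted p under 0.05 by limma, or 729 and 595 under median scaling. Between 30.8% and 34.1% of probes were detected per array, where detected means a detection p under 0.05. The sorts carried markers of their labels. In the crest sort 4 of 6 tested migratory crest genes and 6 of 7 tested neural tube and midbrain genes were higher, and 0 of either list were lower. In the mesoderm sort 5 of 5 head mesoderm genes were higher, as were 7 of 8 endothelial and 6 of 7 blood genes. Foxd3 and Erbb3 of migratory crest, and Pax3, Pax7 and Sox3 of the neural tube, were detected on 0 of the 6 arrays.

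Pou3f1 was the member with a strong signal, and it was higher in crest. Its signal was 1369, 975 and 958 intensity units on crest replicates 1, 2 and 3, against 138, 182 and 212 on mesoderm replicates 1, 2 and 3. Every crest array lay above every mesoderm array, and the probe was detected on all 6. On the crest arrays that signal was 7.57 to 11.4 times the array's median probe, and on the mesoderm arrays 1.39 to 1.95 times. It passed 90.5% to 93.7% of probes on the crest arrays and 73.9% to 82.8% on the mesoderm arrays, so the mesoderm level was low but not at background.

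After background correction and quantile normalization, Pou3f1 had log2 levels of 10.05, 9.14 and 9.96 on crest replicates 1, 2 and 3, against 6.46, 5.80 and 7.32 on mesoderm replicates 1, 2 and 3. The means were 9.72 ± 0.50 in crest and 6.52 ± 0.76 in mesoderm (n = 3 arrays a group, SD). The difference, crest minus mesoderm, was 3.19 ± 0.41 on the log2 scale (SE), a 9.13-fold higher level in crest, with an adjusted p of 8.58e-04 by limma over all genes tested. It was the 37th largest difference toward crest of the 9214. Pou3f1 was 1 of 1 member tested to be called, against 8.31% of all genes called in that direction. The size depends on the background: without its correction the difference was 2.29 (4.89-fold) and with the authors' own log2 values also 2.29. The call held in each of the 18 alternative fits, with an adjusted p of at most 0.0161. In a bulk sort, fewer cells that express a gene and less RNA per cell cannot be told apart.

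**Figure D1:**
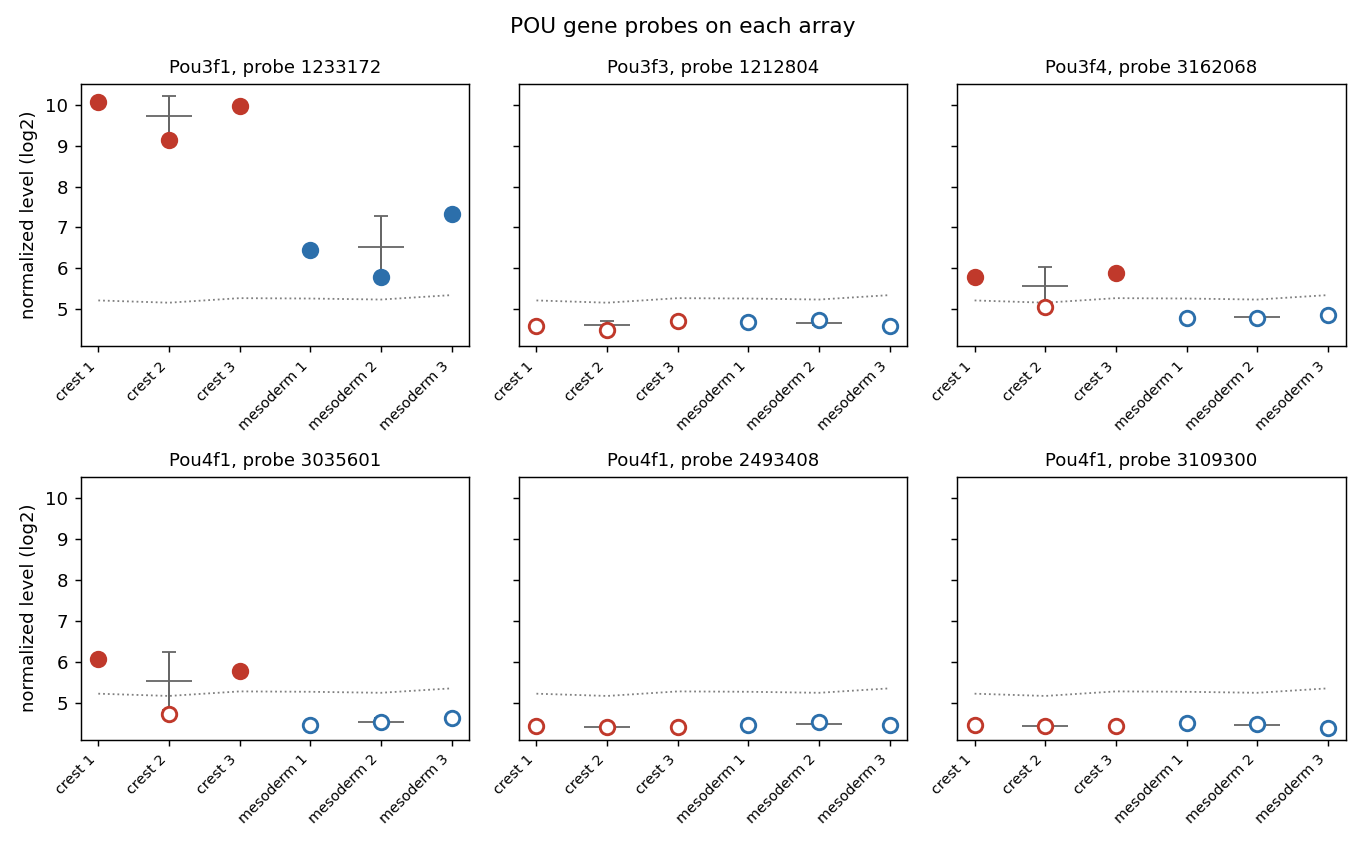
Normalized log2 level of each POU gene probe on each of the 6 arrays, crest in red and mesoderm in blue; filled points were detected, open points were not, bars give mean and SD of 3 arrays, and the dotted line is the lowest detected level of each array. Pou3f1 is detected on all 6 arrays and lies at 9.14 to 10.05 on the crest arrays, against 5.80 to 7.32 on the mesoderm arrays, while Pou3f4 and 1 probe of Pou4f1 pass detection on crest replicates 1 and 3 alone.

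**Figure D2:**
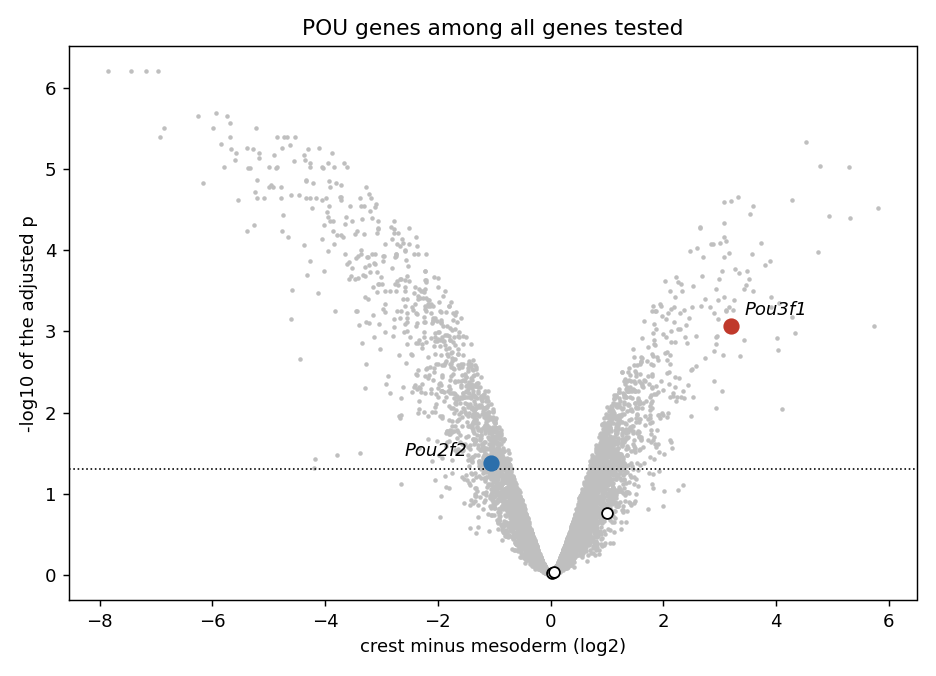
Each dot is 1 of the 9214 genes tested, with the crest minus mesoderm difference (log2) on the x axis and −log10 of limma's adjusted p on the y axis; the dotted line is at an adjusted p of 0.05. Pou3f1 (red) stands at 3.19 toward crest, Pou2f2 (blue) at -1.05 toward mesoderm just past the line, and Pou5f1, Pou5f2 and Pou6f1 (open) lie under it.

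Pou3f4, also called Brn4 and known for its role in inner ear development, was near the detection limit. Its signal was 160, 145 and 142 intensity units on crest replicates 1, 2 and 3, against 101, 134 and 112 on mesoderm replicates 1, 2 and 3. Its log2 level was 5.78, 5.06 and 5.90 on the crest arrays, against 4.79, 4.80 and 4.86 on the mesoderm arrays. The groups did not overlap, as in 19.6% of all genes tested in that direction, but the gene was detected on crest replicates 1 and 3 alone.

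Because a gene had to be detected on 3 arrays to be tested, Pou3f4 was not tested in the main comparison. Its difference was 0.77, but its mesoderm level has only an upper bound, since no mesoderm array detected it. With the mesoderm arrays set at their lowest detected levels, the difference was 0.30 (1.23-fold). When detection on 2 arrays was enough, a setting chosen after the data were seen, the adjusted p was 0.0816 by limma (SE 0.26, 9904 genes), with 7.73% of genes called higher in crest. Without any detection filter it was 0.139, with 2.79% called. Pou3f4 therefore did not pass the threshold in either fit. Without background correction its difference was 0.28.

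Pou4f1 followed the same arrays. Its probe ILMN_3035601 gave 176, 128 and 138 intensity units on crest replicates 1, 2 and 3, against 90.0, 116 and 105 on mesoderm replicates 1, 2 and 3. In log2 levels these were 6.07, 4.72 and 5.77 on the crest arrays, against 4.44, 4.53 and 4.63 on the mesoderm arrays. Crest replicates 1 and 3 were detected, and crest replicate 2 lay with the undetected arrays, at the 48.6th percentile of its array's probes. The difference was 0.99, with a spread of 0.71 (SD) among the crest arrays and only an upper bound on the mesoderm level. With the mesoderm arrays set at their lowest detected levels, it was 0.24 (1.18-fold). The adjusted p by limma was 0.0828 with detection on 2 arrays and 0.208 without a filter, so that the gene was not called in either fit. Without crest replicate 2 the difference was 1.32, and without crest replicate 1 it was 0.70.

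The other 2 probes of Pou4f1 stayed at background. ILMN_2493408 had log2 levels of 4.40 to 4.44 in crest and 4.46 to 4.52 in mesoderm, and ILMN_3109300 had 4.43 to 4.45 in crest and 4.39 to 4.51 in mesoderm. Neither was detected on any of the 6 arrays. The deposited detection p-values of the 3 lines had changed places: the p printed beside ILMN_2493408 matched the signal of ILMN_3035601 to within 0.00107 on every array, that beside ILMN_3109300 matched ILMN_2493408 and that beside ILMN_3035601 matched ILMN_3109300 to within 0.0032. On its own line the p of ILMN_3035601 was off by as much as 0.913. The signals are therefore those of the gene, and which of its 3 probes gave the higher one cannot be told. The lines of Pou3f1, Pou3f3 and Pou3f4 carried p-values that went with their signals.

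Pou3f3, also called Brn1 and known from cortex and kidney, was not detected. Its signal was 113, 113 and 109 intensity units on crest replicates 1, 2 and 3, against 98.9, 131 and 104 on mesoderm replicates 1, 2 and 3. Its log2 levels overlapped, at 4.51 to 4.72 in crest and 4.60 to 4.74 in mesoderm. The detection p was 0.241 or more on every array, and a level below this array's limit is not a sign that the gene was off. Without a filter the difference was -0.07 ± 0.09 (SE, adjusted p = 0.781 by limma).

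An exact two-sided permutation test over the 6 arrays, on log2 signals before normalization, gave p = 0.1 for Pou3f1, for Pou3f4 and for ILMN_3035601 of Pou4f1. With 3 arrays against 3 there are 20 splits, and 0.1 is the smallest p they can give. The same exact test gave p = 1 for Pou3f3, 0.9 for ILMN_2493408 and 0.8 for ILMN_3109300.

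Among the crest arrays, replicate 2 had the lowest normalized level of Pou3f1, Pou3f4 and ILMN_3035601 alike, although the signals before normalization of Pou3f1 and Pou3f4 were lowest on replicate 3. After normalization it was the lowest of the 3 crest arrays in 30.3% of the 766 genes higher in crest and in 38.8% of all genes tested. Young neuron markers were also lowest on crest replicate 2: their mean log2 level over 8 genes was 6.65, 5.85 and 6.52 on crest replicates 1, 2 and 3, against 5.32, 5.52 and 5.07 on mesoderm replicates 1, 2 and 3. Of that list 4 genes were tested and 3 (Stmn2, Elavl3 and Dcx) were called higher in crest, against 8.31% of all genes tested. Neurod1 and Neurog1 were detected on no array. Of 8 surface ectoderm and placode genes with a probe, 3 were tested and 0 were called, and Epcam, Grhl2, Trp63 and Dlx5 were detected on no array.

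Neural tube and midbrain markers were not. Their mean over 10 genes was 7.30, 7.71 and 7.62 on crest replicates 1, 2 and 3, against 4.93, 5.28 and 5.01 on mesoderm replicates 1, 2 and 3, so crest replicate 2 was the highest. Blood genes, a list of 8, averaged 6.77, 4.85 and 6.44 on crest replicates 1, 2 and 3, against 9.80, 9.38 and 10.01 on mesoderm replicates 1, 2 and 3. The embryonic globin gene Hbb-bh1 stood at 11.28, 5.50 and 10.46 on crest replicates 1, 2 and 3, and Hba-x and Hbb-y were likewise far lower on crest replicate 2. The other 5 blood genes stood between 4.46 and 5.51 on all crest arrays. Gata1, Tal1, Nfe2 and Pf4 were detected on no crest array, and Klf1 lay near the detection limit, at 5.51, 5.32 and 5.41. A drop on crest replicate 2 could therefore not be seen in these genes. The part of globin and young neuron genes in the POU values was not tested. Without crest replicate 2 the difference of Pou3f1 was 3.47 (adjusted p = 0.00207 by limma).

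Among the mesoderm arrays, Pou3f1 was highest on replicate 3, at 7.32. The homeobox genes En1 and En2, which mark midbrain and anterior hindbrain, were highest on mesoderm replicate 2 instead, at 5.63 and 5.74, and at 4.50 and 4.54 on mesoderm replicate 3. Sox21, a SOX gene of neural progenitors, was 5.53 on mesoderm replicate 3 and 8.10 on mesoderm replicate 2. Otx2, Hes5 and Msi1 were also highest on mesoderm replicate 2, at 7.89, 6.24 and 6.54. Stmn2 and Nes were highest on mesoderm replicate 1, at 6.55 and 10.15. Sox2 and Lmx1b were highest on mesoderm replicate 3, at 5.58 and 5.61, as Pou3f1 was. Neural genes thus did not all share 1 highest mesoderm array, but several were highest on replicate 2, where Pou3f1 was lowest, at 5.80. Without mesoderm replicate 3 the difference of Pou3f1 was 3.57, the highest of the 6 fits that left out 1 array, and without mesoderm replicate 2 it was 2.83, the lowest.

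The genes whose profile over the 6 arrays was closest to Pou3f1, out of 9213 searched, were Msx3, Insm1 and Nuak2. Closeness was the root-mean-square difference between log2 profiles, each centred on its own mean, and was 0.42, 0.48 and 0.48 log2 units for the 3 genes. Msx3, a homeobox gene of the dorsal neural tube, had log2 levels of 8.58, 7.62 and 9.03 in crest, against 5.53, 5.52 and 6.45 in mesoderm. Its 2 other detected probes gave differences of 1.72 and 0.27, against 2.58 ± 0.40 for the probe used. Insm1, a zinc finger gene of newly born neurons and endocrine cells, had 8.36, 7.32 and 8.57 in crest, against 5.18, 5.27 and 5.34 in mesoderm, a difference of 2.82 ± 0.33. Nuak2, a kinase gene of the AMPK family, had 10.96 to 11.24 in crest, against 7.59, 8.05 and 9.34 in mesoderm. Msx3 and Nuak2 shared with Pou3f1 a highest mesoderm value on replicate 3. That follows largely from picking the genes by their likeness to Pou3f1 over the same 6 arrays. Insm1 was detected on 1 of the 3 mesoderm arrays.

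**Figure D3:**
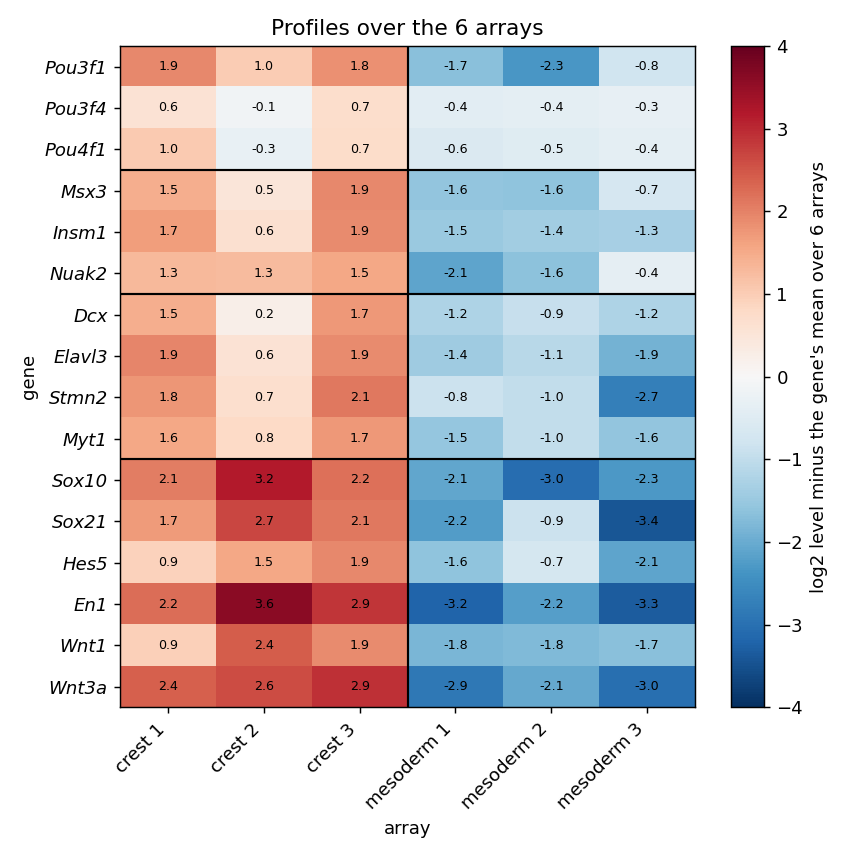
Log2 level minus each gene's own mean over the 6 arrays, for 3 POU members, the 3 genes closest to Pou3f1, 4 genes of young neurons and neurogenesis, and 6 genes of crest and neural tube, with arrays from left to right as crest then mesoderm. Pou3f1, Pou3f4, Pou4f1 and the neuron genes are lowest on crest replicate 2 among the crest arrays, while Sox10, Sox21, En1 and Wnt1 are highest there. Hes5 and Wnt3a are highest on crest replicate 3.

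Of the other POU domain genes only Pou2f2 passed the test, toward mesoderm. Of 9 listed, 6 have a named probe, and of the 4 tested, 0 rose in crest and 1 fell (Pou2f2). Over all genes tested 8.31% were called higher in crest and 10.1% higher in mesoderm. The list's median difference was 0.04, against 0.07 over all genes tested. Pou2f2, which encodes the lymphoid factor Oct2, was detected on the 3 mesoderm arrays and on no crest array. Its log2 levels were 4.88, 5.01 and 4.85 in crest, against 6.05, 5.35 and 6.49 in mesoderm, a fitted difference of -1.05 ± 0.30 (SE, adjusted p = 0.0421 by limma). The gene passed the detection filter through the mesoderm arrays alone, so its crest level has only an upper bound. With the crest arrays set at their lowest detected levels, mesoderm was higher by 0.75 (1.68-fold). Without background correction the difference was -0.39 and did not pass. Apart from the fit with detection on 2 arrays, which kept the call, 17 alternatives were run, and 13 of them tested Pou2f2. The call was lost in 9 of the 13, among them every fit without 1 crest array, median scaling and the authors' values. The other 4 of the 17 had no value, 3 of them because leaving out a mesoderm array left too few detections.

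Pou5f1, the pluripotency factor Oct4, was detected on all 6 arrays near background, at 5.59 to 5.90 in crest and 5.64 to 5.70 in mesoderm. Its difference was 0.02 ± 0.21 (SE). Pou6f1 gave 0.06 ± 0.29 (SE). Pou5f2, a relative of Pou5f1 expressed in testis, ranged over 7.76, 6.01 and 6.57 in crest, against 5.39, 6.39 and 5.59 in mesoderm, and its difference of 0.99 ± 0.45 (SE) did not pass (adjusted p = 0.17 by limma). The deposited detection p of that probe was off by as much as 0.90, and the gene's second probe, detected on no array, gave 0.12. Pou2f3 and Pou4f3 were detected on no array.

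Of the SOX genes listed here, a family whose proteins pair with class III POU factors, Sox2, Sox4, Sox10 and Sox21 were called higher in crest. Of 10 genes listed as SOX and neurogenic partners, 9 have a named probe, and of the 6 tested, 5 rose in crest and 0 fell. Over all genes tested 8.31% were called higher in crest and 10.1% higher in mesoderm. The list's median difference was 1.96, against 0.07 over all genes tested. Sox10, the crest factor that acts with Pou3f1 in glia, had log2 levels of 11.25, 12.35 and 11.39 in crest, against 7.12, 6.15 and 6.89 in mesoderm. That difference was 4.94 ± 0.36 (SE, adjusted p = 3.76e-05 by limma), and Sox21 differed by 4.34 ± 0.58 and the zinc finger gene Myt1 by 2.74 ± 0.31. Sox2, the partner of Pou3f2 at the nestin enhancer, had 6.07, 6.40 and 6.38 in crest, against 4.73, 4.99 and 5.58 in mesoderm, a difference of 1.18 ± 0.27 (adjusted p = 0.0169 by limma). The Sox2 call was lost in 5 of 17 fits, without background correction among them, and that of Sox4 (0.87 ± 0.23) in 7 of 17. The second probe of Sox4 gave 0.20 and did not pass when every probe was tested (adjusted p = 0.635 by limma). The deposited p of the Sox4 probe used did not go with its signal. Sox11 differed by 0.64 ± 0.21 (adjusted p = 0.0662 by limma) and did not pass in the main fit. It passed in several alternatives, among them without background correction (adjusted p = 0.0213 by limma), with the authors' values, without a detection filter and with array weights. Its second probe passed when every probe was tested, at 0.95 (adjusted p = 0.0495 by limma). Sox1 and Sox3 were detected on no array. Outside this list, Sox9 of the migratory crest markers was not called (0.52 ± 0.27), and Sox18 of the endothelial markers was higher in mesoderm (-5.93 ± 0.22). The count of 5 was 3 when crest replicate 2, when crest replicate 3 or when mesoderm replicate 1 was left out.

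Of 8 neural progenitor genes with known POU or SOX input, 5 could be tested, and 3 of these rose in crest and 0 fell. The shares over all genes tested were 8.31% and 10.1%. The list's median difference was 0.85. Hes5, a Notch target, differed by 2.93 ± 0.40 (SE) and Msi1, an RNA-binding protein gene of progenitors, by 1.76 ± 0.36. Nes, which encodes nestin, was abundant in both sorts, at 10.56 to 11.04 in crest and 9.83 to 10.15 in mesoderm. Its difference of 0.85 ± 0.23 (adjusted p = 0.0323 by limma) was lost in 6 of 17 fits, and its second probe gave 0.45. Notch1 and Vim did not pass, at -0.90 ± 0.36 and -0.74 ± 0.46, but Notch1 was called higher in mesoderm with array weights (adjusted p = 0.0194 by limma) and with the replicate block (adjusted p = 0.0257 by limma). Fabp7 and Pax6 were detected on no array, and without mesoderm replicate 1 the count was 1.

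Most sensory neuron genes around Pou4f1 were detected on fewer than 3 arrays. Of 17 listed symbols 15 have a named probe and 6 could be tested. Of these 3 rose in crest and 1 fell, against 8.31% and 10.1% of all genes tested, with a median difference of 1.19. Those higher in crest were Stmn2, Elavl3 and Dcx, genes of young neurons in general, by 3.03 ± 0.54, 2.94 ± 0.40 and 2.27 ± 0.38 (SE). They are the same 3 genes called among the young neuron markers above, a list that also shares Neurod1 and Neurog1 with this one. Dcx was detected on no mesoderm array, and its difference was 1.01 without background correction and 1.30 at its second probe. With the mesoderm arrays set at their lowest detected levels, the difference of Dcx was 1.76 and the list's median 0.93. The second probe of Elavl3 gave 1.47 and did not pass when every probe was tested (adjusted p = 0.0575 by limma). The call of Dcx was lost in 1 of 14 fits and that of Stmn2 in 1 of 17. Neurog1, Neurod1, Tlx3, Prrxl1 and Runx3, which mark sensory neurons or their precursors more closely, were detected on no array. Other listed genes were detected: Ntrk3 on all 6 arrays, without a call (0.10 ± 0.20, adjusted p = 0.787 by limma). Neurog2 was detected on crest replicate 1 alone, at 6.06, and Runx1 on mesoderm replicate 1 alone, at 6.16. Neurod4, a neurogenic bHLH gene, was detected on crest replicates 1 and 3 alone, with log2 levels of 5.88, 5.10 and 5.61 in crest, against 4.59, 4.53 and 4.49 in mesoderm, the array pattern of Pou4f1. As for Pou4f1, the deposited p of the Neurod4 and Neurog2 probes did not go with their signals, so their detection rests on p re-read from the signals. Isl1, a LIM homeobox gene of sensory neurons and of pharyngeal mesoderm, had 7.42, 6.57 and 7.26 in crest, against 7.55, 8.76 and 8.05 in mesoderm, and did not pass (-1.04 ± 0.36, adjusted p = 0.0788 by limma). Ntrk2, the receptor gene of the neurotrophin BDNF, was the 1 higher in mesoderm, at -2.25 ± 0.30. With the deposited detection p another probe of Ntrk2 was used, which gave -0.23 (adjusted p = 0.33 by limma).

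Genes that work with Oct1 showed no call in either direction, against 8.31% of all genes called higher in crest and 10.1% in mesoderm. Of 8 listed, 4 were tested: the small nuclear RNA activating complex genes Snapc1, Snapc3 and Snapc4 and the cofactor gene Hcfc1. Their differences were -0.07 ± 0.26, -0.31 ± 0.27, 0.58 ± 0.25 and 0.28 ± 0.23 (SE), with a median of 0.10. With array weights Snapc4 was called higher in crest, at 0.69 (adjusted p = 0.0278 by limma). Pou2af1, a lymphoid cofactor of Oct1 and Oct2, was detected on no array, as were Snapc2, Snapc5 and Npat.

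**Figure D4:**
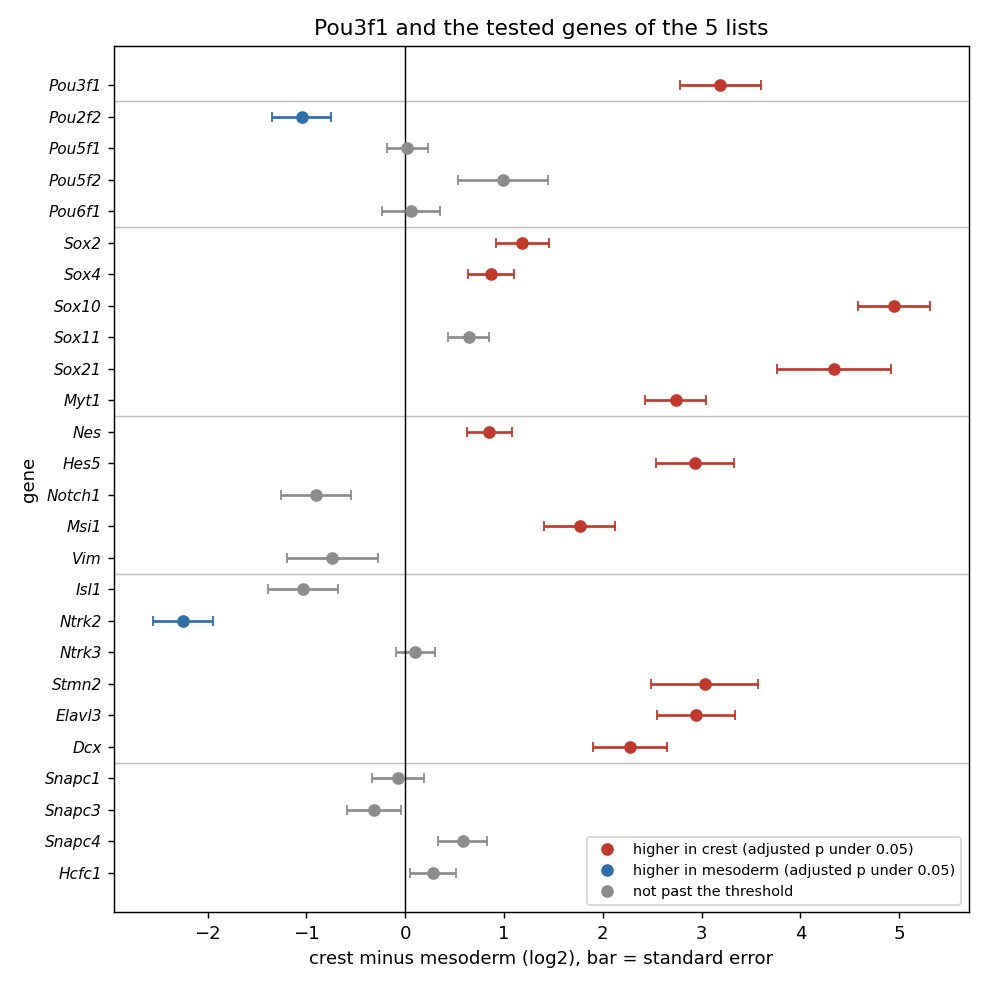
Crest minus mesoderm difference (log2) with its standard error for Pou3f1 and for the tested genes of the 5 lists, separated by lines in the order other POU genes, SOX and neurogenic partners, neural progenitor genes, sensory neuron genes and Oct1 cofactors; red marks genes higher in crest and blue higher in mesoderm at an adjusted p under 0.05. Sox10 and Sox21 lie farthest to the right at 4.94 and 4.34, Pou3f1 is at 3.19, and Ntrk2 lies farthest to the left at -2.25.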

How the data were processed

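Expression was measured on 6 Illumina arrays, 3 of crest and 3 of mesoderm, grouped by their titles. The deposited table gives linear signal intensities without background subtraction, each with a detection p-value, per the file headers. The authors' deposited log2 values lay within 0.00571 of these signals once quantile normalized with no background step, and were an alternative. Summary software was not given in the sources used here. Arrays limit precision by their number.

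In 12273 probes (27.1%) a deposited p lay over 0.06 from the running median over 101 probes ranked by signal, so p was re-read from that median. Signals were corrected with limma 3.58.1's normal-exponential model in R 4.3.3 (offset 16), quantile normalized and put on the log2 scale. Named probes with p under 0.05 on at least 3 arrays were kept, and a gene's brightest kept probe stood for it. limma's linear model compared crest with mesoderm, two-sided, with Benjamini-Hochberg adjustment over 9214 genes. The fit was tested on simulated data. Lists, members and the naming rule (all members, list genes, and the 3 genes closest to a tested member) were chosen with earlier results of these data known. The 5 pathway lists and 7 marker lists got no test of their own. Alternatives changed the background, scaling, detection filter, probe choice, weights, block or arrays, 1 of them (detection on 2 arrays) chosen after the data were seen.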

Additional observations from a re-analysis of the deposited data

How the results depend on the processing

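Pou3f1 kept its direction and its call in each of 18 alternatives, with differences of 2.29 to 3.57 and, over the fits without 1 array, 2.83 to 3.57. The count of members higher in crest was 1 in each. With array weights 1470 genes were higher in crest, and under median scaling 595 were higher in mesoderm. Fits without 1 array gave 241 to 735 genes higher in crest and 433 to 762 higher in mesoderm. Median scaling moved the median difference of all genes to 0.30, against 0.07, and Pou3f1 to 3.50. The replicate numbers were not shown to pair the arrays: same-numbered arrays' deviations correlated at 0.12, 0.32 and 0.02. With the replicate block Pou3f1 had an adjusted p of 2.19e-04 by limma, and 937 genes were higher in crest. Pou3f4, Pou3f3 and Pou4f1 kept the sign of their differences under each normalized setting tried, and were called in no fit that tested them, and Pou3f4 was at 0.28 without background correction and with the authors' values. Levels near the detection limit on a bead array limit how well a difference in these 3 genes could be measured.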
